A study of Mus musculus with 8 samples.

Results

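The enzymes that degrade the aromatic amino acids tyrosine and tryptophan were examined in the liver of NZO and B6 mice. Tat, Hpd, Hgd and Fah stood for the tyrosine branch, and Tdo2, Afmid, Kmo, Kynu and Haao for the tryptophan branch. These 9 genes were selected by name among 34836 gene names on the array by a rule that uses no measured value, although results of these data were known when the genes were chosen. They are covered by 11 probes, as Kmo and Kynu have 2 probes each, and every probe was kept separate. Liver RNA came from 4 male NZO mice of the strain NZO/HiBomDife, which becomes obese and diabetic, and from 4 male C57BL/6 mice (B6), which stay lean, with 1 array per mouse. All 8 mice were 6 weeks of age and had received a diet with 45% fat. No other diet was measured, and the strains differ throughout their genomes, so that the part of a single allele cannot be told apart from that of the remaining background.

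Liver is the main site of aromatic amino acid breakdown. Tyrosine is first transaminated by Tat, converted to homogentisate by Hpd, opened by Hgd and, after an isomerase step, cleaved by Fah into fumarate and acetoacetate. Loss of the last enzyme causes hereditary tyrosinemia. Tryptophan enters the kynurenine pathway through Tdo2, the formyl group is removed by Afmid, and Kmo, Kynu and Haao then lead towards quinolinate and the synthesis of NAD. Tat and Tdo2 are classical targets of glucocorticoids, while Kmo sits at the point where kynurenine can instead be transaminated to kynurenic acid.

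Each value rests on the binding of labelled RNA to a probe of 60 bases. The probe sequences of Hpd, Tdo2 and 1 of the Kynu probes are shown to give the part of the transcript that was read. They are written 5′ to 3′ as listed in the scanner files, without capitals because no base was singled out.
Hpd: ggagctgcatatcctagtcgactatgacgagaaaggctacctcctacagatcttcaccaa
Tdo2: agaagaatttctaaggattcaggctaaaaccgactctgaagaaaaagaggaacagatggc
Kynu: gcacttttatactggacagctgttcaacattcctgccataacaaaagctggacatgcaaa
On the mouse build mm9, the build of the files, the Hpd probe lies at chr5:123622237-123624360 and the Tdo2 probe at chr3:81767918-81770928. Their 60 bases thus cover 2124 and 3011 bases of the genome, which means that both cross an intron and read spliced RNA. The Fah probe, at chr7:91740916-91741732, also crosses an intron, with a span of 817 bases. The Kynu probe shown lies at chr2:43459748-43459807, and the other Kynu probe starts 77447 bases away at chr2:43537195-43537254. The Kmo probes lie at chr1:177590341-177590400 (A_55_P2145606) and chr1:177590673-177590732 (A_66_P106836), so that their starts are 332 bases apart. The remaining probes lie at chr8:112523207-112523266 (Tat), chr16:37621972-37622031 (Hgd), chr11:117700730-117700789 (Afmid) and chr17:84230696-84230755 (Haao). No annotation of mm9 was used, so that exons and untranslated regions are not assigned to these positions.

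Levels are given as log2 of the processed signal minus the 75th percentile of the array, so that a level of 0 equals that percentile. This percentile ranged from 118.569 to 141.799 intensity units on the NZO arrays and from 136.588 to 158.92 on the B6 arrays. Levels of different probes are not comparable, because probes bind with different strength. The arrays of one strain correlated with r between 0.97274 and 0.99061 over all probes, and the arrays of different strains with r between 0.95049 and 0.96585.

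Hepatocyte markers were abundant on all arrays, and Adipoq, Plin1 and Lep of fat, Cpa1, Cela3b and Pnlip of exocrine pancreas and Umod of kidney were not well above background on any array. Other markers on these lists were detected, as Fabp4 and Cidec of fat and Ctrb1 and Cela1 of pancreas were above background on all 8 arrays and Slc34a1 of kidney, at 1 of its 2 probes, on 3 NZO and 4 B6 arrays, with overlapping values and no call for any of them. For the sum of a marker list, each gene was represented by 1 probe, the one with the highest mean level. Signals were added before log2 was taken. The difference in summed log2 level, NZO minus B6, was -0.25 for the fat, 0.22 for the pancreas and -0.52 for the kidney list. The signals of 3 skeletal muscle markers differed between mice of the same strain. Their summed log2 level was 3.94 in NZO 007 but between -3.20 and -1.80 in the other NZO mice, and it was 2.33 in B6 010 but between -1.62 and 0.26 in the other B6 mice. The difference of each enzyme between the strains is therefore also given without NZO 007 and without B6 010.

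Expression of most of these enzymes did not differ detectably between the strains. Each of the 11 probes was detected well above background on every array. A probe was called when its limma p-value, adjusted by Benjamini-Hochberg over 27623 probes, was at most 0.05 and its log2 fold change was at least 0.7 in either direction. By this rule 1 of the 11 probes, 1 of the Kmo probes, was lower in NZO and 0 were higher, whereas 5.27% of all tested probes were lower and 4.36% were higher. The thresholds of the methods, with the p-value of limma left unadjusted, also gave 1 member probe, against 12.2% of all probes in either direction. Afmid, the 1 probe with a higher level in NZO at an unadjusted p of 0.05 in limma, was not called. The methods' t-test after adjustment called 0 of the 11 probes in either direction, against 6.23% of all probes. An unadjusted p of 0.05 at any fold was reached by 3 of the 11 probes and by 27.8% of all probes. Both Kmo probes passed the adjusted p at any fold, as did 14.3% of all probes. In 3 of the 11 probes, the 2 Kmo probes and Afmid, the values of the strains did not overlap, and this was the case for 22.0% of all probes. The median log2 fold change of the 11 probes was 0.00 and that of all tested probes 0.02. The median absolute log2 fold change was 0.18 for the 11 probes and 0.24 for all tested probes. The plot of levels by mouse shows all values.

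**Figure D1:**
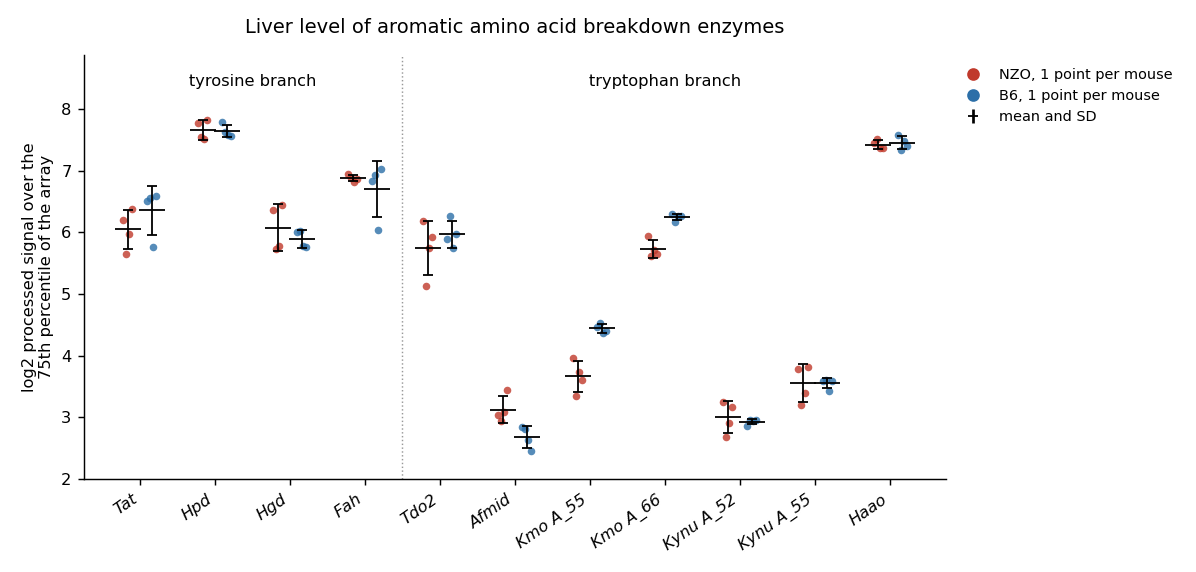
Log2 processed signal over the 75th percentile of the array (vertical axis) for each of the 11 probes, with 1 point per mouse (NZO red, B6 blue) and the mean and SD of the 4 mice. The NZO points lie below all B6 points for both Kmo probes and above them for Afmid, and the strains overlap for the other probes; levels of different probes are not comparable.

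In the tyrosine branch, 0 of 4 probes were called by limma, and 0 of 4 reached an unadjusted p of 0.05 (27.8% of all probes) or were called by the methods' t-test (6.23% of all probes). Tat, which transfers the amino group of tyrosine, had log2 levels of 6.20, 5.65, 5.98 and 6.39 in NZO 003, 007, 009 and 011 and of 6.52, 6.56, 5.77 and 6.59 in B6 009, 010, 011 and 015. Of the B6 mice, 3 lay above all NZO mice, but B6 011 fell within the NZO range. The difference of -0.31 (SE 0.23, 95% confidence interval -0.83 to 0.22, adjusted p = 0.432) was within the spread. The interval includes a decrease beyond the fold limit, and the difference was -0.50 without B6 011 and -0.17 without NZO 007.

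Hpd, the dioxygenase that forms homogentisate, was nearly equal in both strains. The NZO mice had a log2 level of 7.67 ± 0.16 and the B6 mice one of 7.64 ± 0.10 (SD, n = 4 each), a difference of 0.02 with a 95% confidence interval from -0.23 to 0.28 (adjusted p = 0.920). A change beyond the fold limit of 0.7 lies outside this interval, and the difference was 0.064 without NZO 007. Hgd, which opens the ring of homogentisate, split the NZO mice, as NZO 003 and 011 had 6.36 and 6.44 while NZO 007 and 009 had 5.73 and 5.79. The B6 mice lay between 5.77 and 6.02, and the mean difference was 0.18 (SE 0.19, adjusted p = 0.569). With 1 mouse removed at a time it ranged from 0.064 without NZO 011 to 0.30 without NZO 007, and it was 0.091 without NZO 003.

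Fah, the last enzyme of the branch, had log2 levels of 6.95, 6.89, 6.82 and 6.87 in NZO 003, 007, 009 and 011. In B6 it had 6.84, 6.93 and 7.03 in mice 009, 010 and 015, but 6.04 in B6 011. The difference of 0.18 (SE 0.21, 95% confidence interval -0.30 to 0.65, adjusted p = 0.632) rested on that mouse, since it was -0.047 without B6 011 and 0.17 without NZO 007. B6 011 was thus the lowest B6 mouse for both the first and the last enzyme of the tyrosine branch.

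In the tryptophan branch, Tdo2, which opens the indole ring and admits tryptophan to the pathway, varied among mice of one strain. The NZO values were 6.19, 5.14, 5.75 and 5.92 in mice 003, 007, 009 and 011, and the B6 values were 5.89, 6.27, 5.75 and 5.97 in mice 009, 010, 011 and 015. NZO 007 was lower than every other mouse, and the remaining NZO mice overlapped with B6. The difference of -0.22 (SE 0.23, 95% confidence interval -0.74 to 0.30) did not pass the test (adjusted p = 0.570), and without NZO 007 it was -0.018 (adjusted p = 0.956).

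Afmid, the formamidase that releases kynurenine, was the only member with all NZO mice above all B6 mice. The NZO levels were 3.04, 2.95, 3.08 and 3.44 in mice 003, 007, 009 and 011, and the B6 levels were 2.84, 2.80, 2.63 and 2.46 in mice 009, 010, 011 and 015. The gap between the lowest NZO and the highest B6 mouse was small compared with the spread inside each strain. The difference of 0.44 (SE 0.14, 95% confidence interval 0.12 to 0.77) had an unadjusted p of 0.0137 but an adjusted p of 0.0787 in limma, so it did not pass, nor did it without NZO 007 (0.50, adjusted p = 0.0710). It was 0.56 within the first scan day, 0.21 within the second and 0.41 within the slide that held both strains.

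Kmo, the mitochondrial enzyme that hydroxylates kynurenine, was lower in NZO at both probes. At A_55_P2145606 the log2 levels were 3.96, 3.35, 3.73 and 3.61 in NZO 003, 007, 009 and 011 and 4.47, 4.52, 4.37 and 4.41 in B6 009, 010, 011 and 015. At A_66_P106836 they were 5.94, 5.61, 5.72 and 5.65 in the NZO mice and 6.30, 6.17, 6.27 and 6.26 in the B6 mice, in the same order. Every NZO mouse was below every B6 mouse at both probes, NZO 003 was the closest to B6 at both, and the NZO mice scattered more than the B6 mice.

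The mean levels at A_55_P2145606 were 3.66 ± 0.25 for NZO and 4.44 ± 0.07 for B6 (SD, n = 4 each), so that NZO had 58.3% of the B6 signal. The log2 fold change of -0.78 (SE 0.14, 95% confidence interval -1.09 to -0.47) was called (limma, adjusted p = 0.0061). At A_66_P106836 NZO had 69.8% of the B6 signal, and the log2 fold change of -0.52 (SE 0.10, 95% confidence interval -0.75 to -0.28, limma, adjusted p = 0.0111) passed the adjusted p but not the fold limit. The probes therefore gave the same direction with different sizes, and their intervals overlapped.

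The call of Kmo was close to the fold limit. Without NZO 007, the lowest NZO mouse at both probes, the log2 fold changes were -0.67 (adjusted p = 0.0083) and -0.48 (adjusted p = 0.0258), so that the adjusted p held while the call was lost. At A_55_P2145606 the difference was -0.70 within the first scan day (3 NZO and 2 B6 mice), -1.07 within the second (1 NZO and 2 B6 mice) and -0.51 within the slide that held both strains (1 NZO and 2 B6 mice). At A_66_P106836 these differences were -0.44, -0.67 and -0.27. NZO was lower in each of these comparisons. With the slide as a fixed block, the strain difference rests on the slide that held both strains, with NZO 003, B6 010 and B6 015. That fit gives the same differences as within this slide, and with 1 NZO mouse no p-value is given for it.

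**Figure D2:**
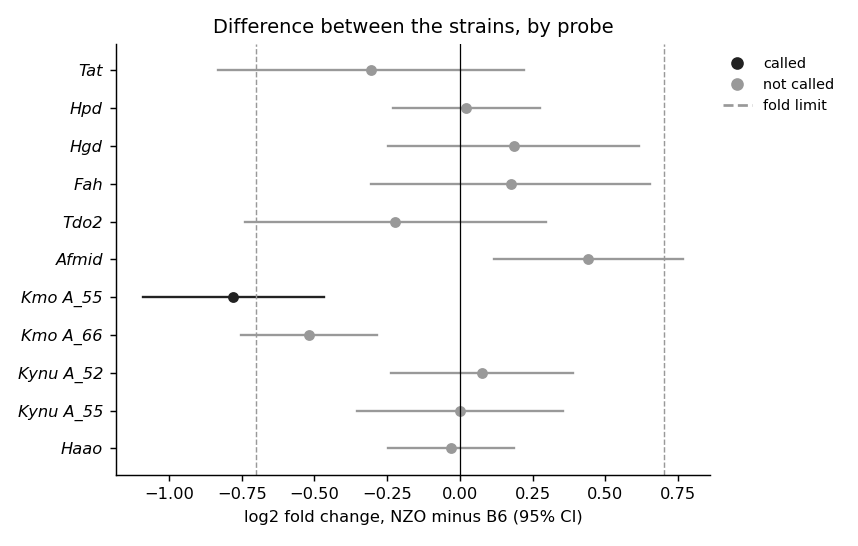
Log2 fold change of NZO minus B6 (horizontal axis) with its 95% confidence interval from limma for each of the 11 probes; dashed lines mark the fold limit of 0.7. The Kmo probe A_55_P2145606 at -0.78 is the 1 probe called (black), and the intervals of the second Kmo probe and of Afmid leave out 0 while the other 8 include it.

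Kynu, which cleaves hydroxykynurenine and kynurenine, was measured by 2 distant probes with the same outcome. At A_52_P118560 the log2 levels were 3.25, 2.68, 2.91 and 3.16 in NZO 003, 007, 009 and 011 and 2.87, 2.95, 2.93 and 2.95 in B6 009, 010, 011 and 015. At A_55_P1965975, the probe whose sequence is shown, NZO had 3.55 ± 0.30 and B6 3.55 ± 0.08 (SD, n = 4 each). The differences were 0.07 (95% confidence interval -0.24 to 0.39, adjusted p = 0.765) and 0.00 (95% confidence interval -0.35 to 0.36, adjusted p = 0.999). Without NZO 007 they were 0.18 (adjusted p = 0.320) and 0.12 (adjusted p = 0.604). NZO 003 and 011 were above and NZO 007 and 009 below the NZO mean at both probes, and the NZO mice thus surrounded the B6 mice.

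Haao, which produces the precursor of quinolinate, was the least variable enzyme in NZO after Fah. The log2 level of NZO was 7.43 ± 0.07 and that of B6 7.46 ± 0.11 (SD, n = 4 each). The difference of -0.03 had a 95% confidence interval from -0.25 to 0.19 (adjusted p = 0.872), which leaves out the fold limit, and it was -0.058 without NZO 007. Kmo was accordingly the 1 step between Tdo2 and Haao that passed the test, and the differences between Kmo and the other steps were not tested. Without B6 010, which also had muscle signal, the Kmo probes had -0.75 (adjusted p = 0.0227) and -0.55 (adjusted p = 0.0256). Of the enzymes not called, Tat then had -0.24, Tdo2 -0.12, Hgd 0.23, Fah 0.25 and Afmid 0.48, and Hpd, Kynu and Haao had between -0.067 and 0.083.

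Several markers of Kupffer cells, the resident macrophages of the liver, were also lower in NZO. All 7 markers were well above background on all 8 arrays, and of their 11 probes 10 had a negative log2 fold change, 6 passed the adjusted p at any fold (14.3% of all tested probes did) and 3 were called lower (5.27% of all tested probes). The called probes were those of Marco (-1.83, adjusted p = 0.0113), Clec4f (-1.13, adjusted p = 0.0009) and 1 of the 3 probes of Csf1r (-0.80, adjusted p = 0.0023). Marco is a scavenger receptor, Clec4f a lectin of Kupffer cells and Csf1r the receptor of their growth factor. The brightest signal of the list came from another Csf1r probe, which was not called and overlapped between the strains (-0.51, limma, adjusted p = 0.175). That probe, and not the called one, entered the sum of the list. The summed signal of the list had log2 levels of 6.49, 6.54, 6.18 and 6.27 in NZO 003, 007, 009 and 011 and of 6.77, 6.92, 7.11 and 7.49 in B6 009, 010, 011 and 015. The strains did not overlap, and the difference of means was -0.70. NZO 007 had the highest marker sum among the NZO mice and B6 015 the highest among the B6 mice.

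The part of the Kupffer cell signal in the lower Kmo signal was not tested, and in RNA of whole liver fewer cells of a type cannot be told apart from less RNA per cell. Of the 7 probes of 6 hepatocyte markers, 0 were called by limma, against 4.36% higher and 5.27% lower of all tested probes. An unadjusted p of 0.05 in limma was reached by 2 of them (27.8% of all probes), and the methods' t-test called 0 (6.23%). Summed over the list, the log2 level of NZO was 12.72 ± 0.04 and that of B6 12.55 ± 0.11 (SD, n = 4 each), and the strains did not overlap here either, with 12.68 to 12.77 in NZO and 12.43 to 12.66 in B6. Alb gave the brightest signal in this sum. Of the 7 probes 3 had a negative log2 fold change, as did 13313 of all 27623 tested probes. Among these 3 were both probes of Cyp2e1 (-0.37, limma, adjusted p = 0.0596, with no overlap, and -0.17). Red blood cell markers went the other way, with a summed log2 level between 8.19 and 8.87 in NZO and between 7.28 and 7.70 in B6. Of the probes of these 3 markers, those of Hba-a1, the one with the brightest signal (1.01, adjusted p = 0.0181), and of Alas2 (0.90, adjusted p = 0.0023) were called higher in NZO, as were 4.36% of all tested probes. The Hba-a1 call was lost without B6 010 or without B6 015 and was made in 11 of 19 alternatives.

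The markers of 3 further cell types were also measured. The summed signal of 2 endothelial markers, with Stab2 as the brightest probe, had log2 levels of 4.998 to 5.13 in NZO and 4.46 to 4.69 in B6, without overlap. Of their 4 probes 0 were called by limma, against 4.36% higher and 5.27% lower of all tested probes. An unadjusted p of 0.05 was reached by 2 of them (27.8% of all probes), and the methods' t-test called 0 (6.23%). The 3 probes of Stab2 differed in sign (0.49, -0.44 and -0.93), and only the probe with 0.49 entered the sum. The probe with 0.49 passed the adjusted p at any fold (limma, adjusted p = 0.0089), as did 14.3% of all probes. The probe with -0.93 met the thresholds of the methods with unadjusted p, as did 12.2% of all probes. The summed signal of 2 bile duct markers had a difference of means of -0.69 with overlapping values, and the 1 probe tested, that of Krt19, was not called (-0.65, SE 0.21). Of 4 tested probes of other leukocyte markers, that of Itgax, an integrin of myeloid cells, was called lower, as were 5.27% of all tested probes. It was above background on 4 B6 but only 2 of the 4 NZO arrays. Itgax thus passed the filter only through B6, the strain where it was higher, so that no p-value is given and nothing is read from its call. Its log2 fold change of -2.04 (SE 0.53) rests partly on values at background. The call held in 7 of 19 alternatives. It held in 2 of the 8 fits that left out 1 mouse each, those without NZO 007 or NZO 011. The summed leukocyte signal overlapped between the strains, with a difference of means of 0.17. The part of any of these cell types in the values of Kmo and Afmid was not tested.

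**Figure D3:**
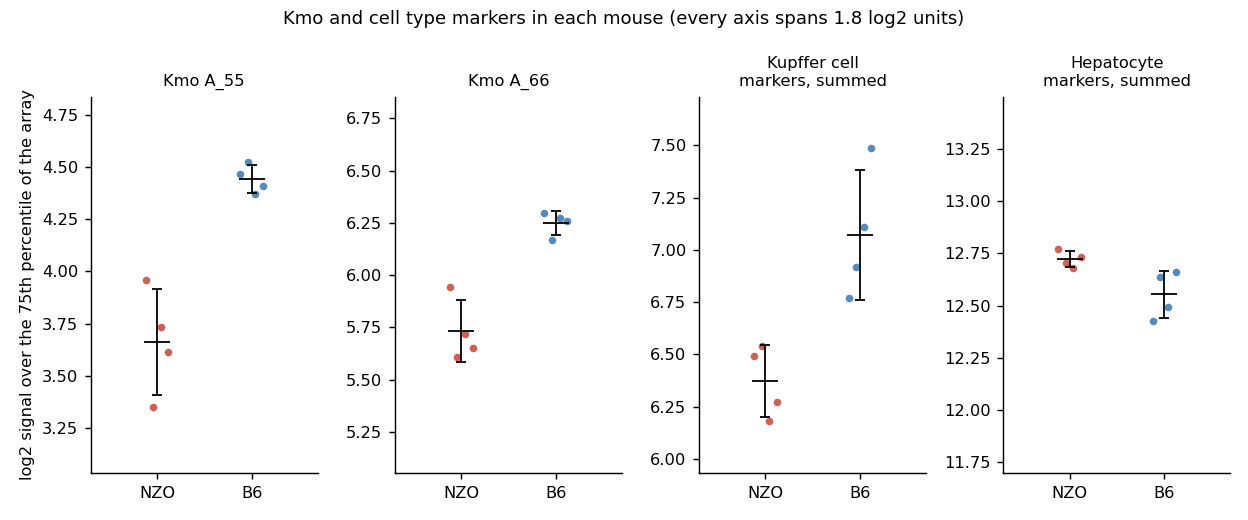
Log2 signal over the 75th percentile of the array in each mouse for both Kmo probes, for the summed Kupffer cell markers and for the summed hepatocyte markers, with the mean and SD of the 4 mice of each strain. Each vertical axis covers the same range of log2 units, and the strains are separate in all panels, with NZO below B6 for Kmo and the Kupffer cell markers (NZO 6.18 to 6.54, B6 6.77 to 7.49) and above B6 for the hepatocyte markers, whose sum is led by Alb (NZO 12.68 to 12.77, B6 12.43 to 12.66).

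Mice of one strain differed from each other in several enzymes at once. NZO 003 was above the NZO mean in 8 of the 9 genes (for Kmo and Kynu by the probe with the higher mean), NZO 011 in 6, NZO 007 in 2 and NZO 009 in 1. For every enzyme except Fah and Kmo, the distance between the lowest and the highest NZO mouse was larger than the difference between the strain means. In NZO 007 Tdo2 lay 0.61 below the NZO mean, Tat 0.41, Hgd 0.35 and both Kynu probes 0.33 and 0.35, whereas Fah and Haao deviated by 0.01 and 0.09. Among the B6 mice, B6 011 was below the mean in 7 genes, led by Fah with 0.67 and Tat with 0.59. The plot of the deviations shows that Haao and Fah did not follow the other enzymes in NZO. These deviations share the scaling of the array and are a description of 8 mice.

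**Figure D4:**
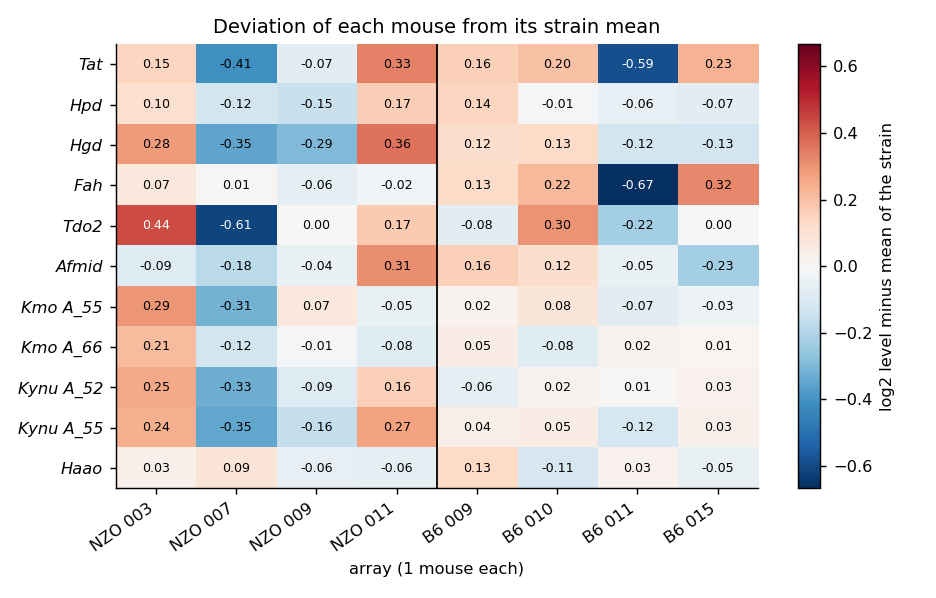
Log2 level of each probe (rows) in each mouse (columns) minus the mean of its strain; red is above and blue below the mean. NZO 003 and 011 are mostly above and NZO 007 and 009 mostly below the NZO mean, and the largest deviation is that of Fah in B6 011 (-0.67).

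The genes around these enzymes were examined with lists of cofactor enzymes, side routes, carriers and glucocorticoid targets, together 40 genes with 51 probes, of which 46 probes of 37 genes were bright enough to be tested. By the rule above, 6 probes of 5 genes were higher and 8 probes of 7 genes were lower in NZO, and 32 probes were not called. Among the called probes, those of Maoa (higher) and Aadat (lower) passed the filter only through the strain with the higher level, so that nothing is read from their calls. Of all tested probes, 4.36% were higher and 5.27% were lower. These lists were also chosen with results of these data known, so that nothing is read from their share of calls. The median log2 fold change of the 46 probes was 0.03 and the median absolute value 0.21, against 0.02 and 0.24 for all tested probes.

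The cofactor of the aromatic amino acid hydroxylases, tetrahydrobiopterin, is made by a pathway that starts with Gch1 and is regenerated by Qdpr. Qdpr was lower in NZO, with log2 levels of 5.44 to 5.62 against 6.59 to 6.91 in B6 at A_55_P2008651. The strains were far apart at this probe (-1.19, SE 0.11, adjusted p = 0.0002), and its second probe had the same direction with a smaller size (-0.54, adjusted p = 0.0204), below the fold limit. Gch1 was lower at A_52_P298002 with 1.52 to 1.76 against 2.28 to 2.86 (-0.86, SE 0.14, adjusted p = 0.0040). Its second probe had -0.64 and narrowly missed the adjusted p (0.0517), although its NZO and B6 values did not overlap either. Pts, Spr, Gchfr, Pcbd1 and Pcbd2, the other genes of cofactor synthesis and its control on the list, were not called, with log2 fold changes between -0.11 and 0.23.

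Among the transaminases, Got1, the cytosolic aspartate aminotransferase, was higher in NZO with 6.52 to 7.68 against 5.50 to 6.34 (1.23, SE 0.29, adjusted p = 0.0245). The Got1 call was lost in 4 of the 8 fits that left out 1 mouse each, those without NZO 003, B6 010, B6 011 or B6 015, with the same direction in all. Got2, the mitochondrial form, was not called (0.26, adjusted p = 0.162). Gstz1, the isomerase between Hgd and Fah, had 0.00 (adjusted p = 0.985). Hpdl, a relative of Hpd, was above background on 0 of the NZO and 2 of the B6 arrays and was not tested.

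Kynurenine can leave the main route of the pathway through transaminases that form kynurenic acid. At 1 probe of Kyat3, a kynurenine aminotransferase, the NZO levels of 3.38 to 3.55 exceeded the B6 levels of 1.94 to 2.11 (1.43, SE 0.09, adjusted p = 2.79e-05). The other probe of Kyat3 gave 0.38 (adjusted p = 0.0669), so that the probes disagreed in size by more than their intervals. Both probes of Kyat1 were not called (0.10 and 0.13). Aadat, a further aminotransferase for kynurenine, was above background on all 4 B6 and on 0 of the NZO arrays. It thus passed the filter only through B6, the strain where it was higher, and no p-value is given for it. Its fitted log2 fold change was -1.69, with NZO values at background, and -0.20 with normexp background correction. The size of its difference is therefore not known. Aadat is counted among the called probes, in 15 of 19 alternatives as well, but nothing is read from its call.

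Downstream of Haao, Qprt, which converts quinolinate on the way to NAD, had log2 levels of 6.46 to 6.65 in NZO and 6.04 to 6.16 in B6. It passed the adjusted p but not the fold limit (0.49, SE 0.09, adjusted p = 0.0081). Nmnat3, which joins the nucleotide to adenylate in mitochondria, had -0.74 to -0.33 in NZO against 1.46 to 1.91 in B6 (-2.10, SE 0.14, adjusted p = 4.2e-05). This was the largest fitted difference on the lists, although the size of the Aadat difference is not known and cannot be ranked. A second Nmnat3 probe was at background on all arrays. Acmsd, which diverts the product of Haao from NAD, did not pass and had a wide interval (-0.15, SE 0.30, adjusted p = 0.795). Ido1, the other enzyme that opens tryptophan, was at background on all arrays, and its relative Ido2 was not called (0.16).

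Decarboxylation was represented by Ddc, which forms amines from aromatic amino acids and was higher in NZO at both probes. Its levels were 3.95 to 4.45 against 2.79 to 3.46 at A_52_P63905 (1.07, SE 0.18, adjusted p = 0.0053) and 6.59 to 6.82 against 4.74 to 5.86 at A_55_P2110497 (1.43, SE 0.22, adjusted p = 0.0033). Maoa, which oxidizes such amines, was called higher (0.89, SE 0.17) at a level near background, as it was above background on 4 NZO and 3 B6 arrays. It thus passed the filter only through NZO, the strain where it was higher, so that no p-value is given and nothing is read from its call. Its log2 fold change was 0.30 with normexp, where the call was lost, and 1.44 with the slide as a fixed block. Maob was not called (-0.01). Inmt, which methylates indole amines, was lower in NZO (-0.82, SE 0.14, adjusted p = 0.0057).

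Of the 5 carrier genes on the list, 2 were called lower in NZO. These calls were made at 3 of 8 tested probes, against 5.27% of all tested probes, and nothing is read from this count. Slc16a10, which carries aromatic amino acids across the cell membrane, was called at 2 of its 3 probes (-0.91, adjusted p = 0.0042, and -1.42, adjusted p = 0.0038), while the third had -0.45 (adjusted p = 0.189) and overlapping values. Slc7a8, a carrier of neutral amino acids, had -2.29 to -1.83 in NZO and -0.80 to -0.49 in B6 (-1.37, SE 0.14, adjusted p = 0.0003). With normexp, Slc7a8 had -0.60 and the Slc16a10 probe with -1.42 had -0.50, so that the direction was kept and both calls were lost at the fold limit. Slc7a5, Slc3a2 and Slc43a1 were not called, with log2 fold changes between 0.03 and 0.33. The glucocorticoid receptor Nr3c1 had -0.03 and 0.03 at its 2 probes, and of its target genes on the list Fkbp5 was higher (0.90, SE 0.15, adjusted p = 0.0050), whereas Tsc22d3 (-0.20) and Per1 (-0.03) were not called. Tat and Tdo2, which are targets of the same receptor, had log2 fold changes of -0.31 and -0.22.

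**Figure D5:**
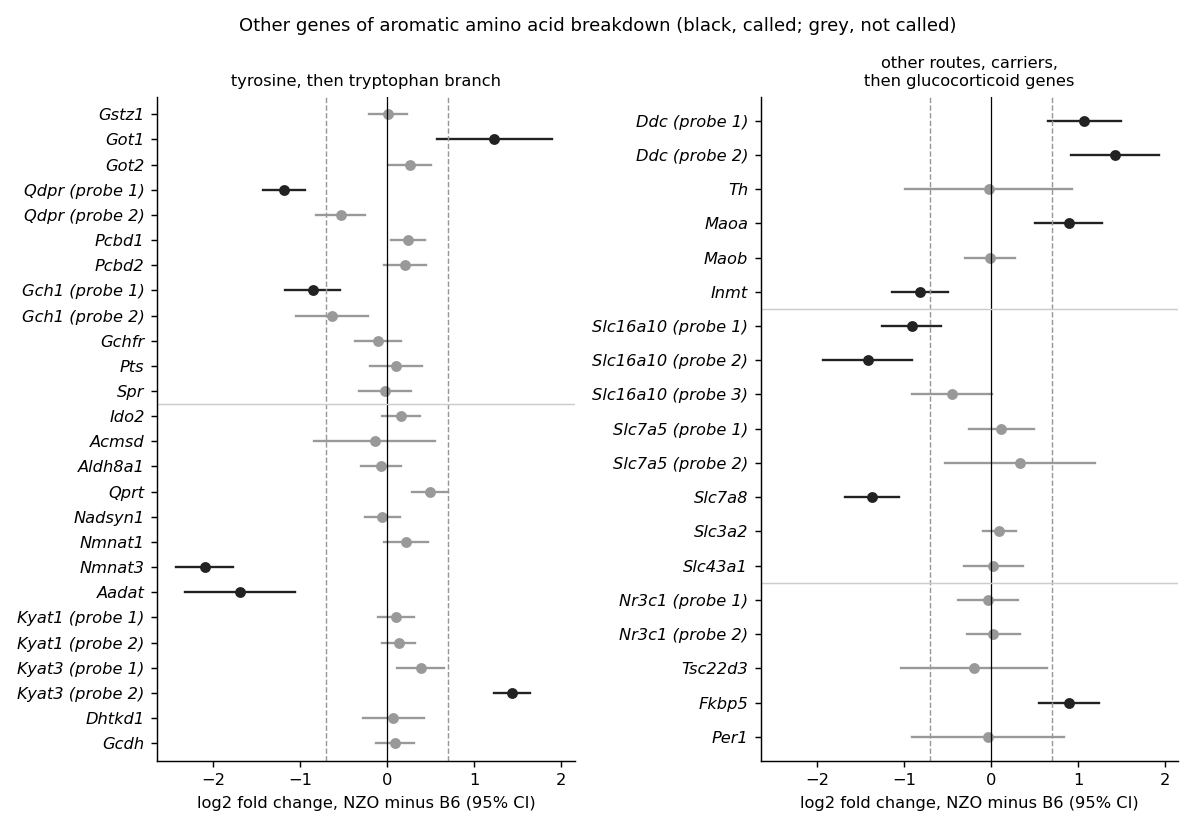
Log2 fold change of NZO minus B6 (horizontal axis) with its 95% confidence interval from limma for 45 tested probes of the surrounding genes, in the order of the lists; grey lines separate the lists and dashed lines mark the fold limit of 0.7. The 14 called probes are black, 6 to the right and 8 to the left, with the fitted value of Nmnat3 (-2.10) farthest from 0. Among them, Aadat and Maoa passed the filter only through the strain with the higher level.

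The pattern of Kmo over the 8 mice was most like those of Vwa8, Acsm3 and Acp1 among the probes tested. Their levels correlated with that of A_55_P2145606 with Pearson r of 0.993, 0.992 and 0.992 over 8 arrays. Much of this likeness lies between the strains, as the log2 fold changes were -0.64 for Vwa8, a mitochondrial protein, -0.83 for Acsm3, a mitochondrial acyl-CoA synthetase, and -0.54 for Acp1, a phosphatase. These genes were ranked by their likeness, which is therefore no finding about them.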

How the data were processed

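Liver RNA of 4 NZO and 4 B6 mice was hybridised to 1-colour Agilent arrays. The authors deposited scanner files, in which Agilent Feature Extraction (11.0.1.1 per the file headers, 9.1 per the labels) gives the intensity of each spot as processed signal, with background subtracted and no scaling between arrays, and a table that equalled the raw median intensity for 59305 of 59305 spots on each array (tolerance 0.01). Spots of controls and spots marked as outliers (between 96 and 137 on an array) were removed, log2 of the deposited processed signal was scaled by the 75th percentile, and spots of a probe were averaged. Between 50.4% and 60.1% of spots were well above background and 0 were saturated; the number of arrays limits the precision.

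A probe was kept if 1 or both strains had it well above background on each of the 4 arrays (27623 of 55681), and strains were compared with limma 3.58.1 in R 4.3.3 and Benjamini-Hochberg adjustment. The fold limit of 0.7 is that of the methods, which name a t-test with Welch correction. Named were all members, called genes of the lists and genes described beside them, the 3 genes most like Kmo, and the brightest and called markers of the cell types discussed; the uncalled genes were named after their values were seen. The members and lists were chosen with earlier results of these data known. The values of 1 tested gene of the surrounding lists are not reported here, but count in its list. Probe sequences and positions came from the scanner files; the NZO sequence under the probes was not analysed here. Alternatives were normexp with an offset of 50, quantile or median scaling, the deposited table, no filter, 1 probe per gene name, slide, scan day or mouse number as a block, the methods' t-test, and leaving out each mouse. Simulated arrays with known changes were used to check the limma step. Python 3.11.15 (pandas 2.3.3, matplotlib 3.10.9) was used for tables and plots.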

Additional observations from a re-analysis of the deposited data

Results flagged for a closer look

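In 2 of 22 groups of 4 mice, 1 mouse was separated from the remaining 3 by most of the range of the group, which chance does in roughly 1 of 20 groups. For Tat, B6 011 had a log2 level of 5.77, while the other B6 mice had 6.52 to 6.59. For Kynu at A_55_P1965975, B6 011 had 3.43 and the other B6 mice 3.59 to 3.60.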

How the results depend on the processing

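Kmo was lower in NZO at both probes under every alternative in which the probe was tested, with log2 fold changes from -1.02 to -0.51 at A_55_P2145606 and from -0.77 to -0.27 at A_66_P106836. The count of member probes lower in NZO was 1 and became 2 with the deposited table and 0 with 1 probe per gene name, the replicate block and the methods' t-test after adjustment. It ranged from 0 to 1 when each mouse was left out, and only leaving out NZO 007 gave 0. With 1 probe per gene name the called probe was not tested. The replicate block compares the strains only through mice 009 and 011 of each. The slide as a fixed block compares them only through 1 NZO and 2 B6 mice of 1 slide, so that nothing is read from its counts of calls, here or below. The cause of the remaining changes was not tested. Afmid stayed higher in NZO without passing (0.20 to 0.52). The deposited table, which holds unscaled values, shifted the median of all probes by -0.17; relative to its own median the Kmo probes had -0.87 and -0.61, and Hpd, Hgd and Fah -0.081, 0.12 and 0.12.

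Of all probes, 1203 were higher (45.3% of the calls) and 1455 lower. The higher count was 617 with normexp, 575 with the deposited table (28.8% of its calls), 502 with the slide as a fixed block and 72 with the replicate block, and the lower count was 577 with normexp, 134 with the replicate block and 886 with the t-test. Of the surrounding genes' probes, 6 were higher and 8 lower, and these 14 kept their direction under every alternative that tested them. The higher count was 3 with the slide as a fixed block, 0 with the replicate block and 3 with the t-test, and the lower count was 5 with normexp, 3 with the slide as a fixed block and 0 with the replicate block. The mouse numbers 009 and 011 occur in both strains, and the deviations of arrays with the same number correlated with r of -0.26 and 0.00. For arrays of different strains with different numbers, r lay between -0.35 and 0.35. The numbers were taken as names of mice, and whether they mark a shared factor cannot be decided from these values.

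Uncalled differences also changed sign, and none was called with the other sign. With the replicate block Tat had 0.039, Hpd -0.0099 and Tdo2 0.016. With the deposited table Hpd had -0.23, Hgd -0.035, Fah -0.034 and the Kynu probes -0.12 and -0.25. With normexp Hpd had -0.060 and Kynu at A_55_P1965975 -0.067, and with quantile scaling they had -0.089 and -0.066. With the slide as a fixed block Fah had -0.022, Tdo2 0.064 and Haao 0.083, and with the scan day as a block Kynu at A_55_P1965975 had -0.061 and Haao 0.0059. When each mouse was left out, the log2 fold changes ranged from -0.033 to 0.071 for Hpd, from -0.047 to 0.28 for Fah, from -0.0094 to 0.18 and from -0.090 to 0.12 for the Kynu probes and from -0.067 to 0.015 for Haao.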
